A study of Mus musculus with 14 samples.

Results

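Measured here were 10 genes of the mammalian circadian clock, Dbp, Tef, Hlf, Per1, Per2, Per3, Cry2, Nr1d1, Arntl and Clock, among the 47729 genes counted in each of 14 RNA-seq libraries of whole mouse kidney. The members were taken as the rows whose Ensembl identifier carries one of these symbols in the mm10 annotation, and all 10 were found once and passed the filter on low counts. They were selected on their measured levels in these same libraries, since the list was drawn up with results of these data already known. Their fold changes and the numbers that pass a threshold are therefore descriptions. The libraries came from kidneys of mice labelled Wildtype (WT) or SMOC2 Transgenic. Each genotype was taken without treatment (normal) or 7 days after unilateral ureteral obstruction (UUO), a surgical closure of 1 ureter that leaves a kidney with tubular injury and fibrosis. There were 3 WT normal, 4 WT UUO, 3 SMOC2 normal and 4 SMOC2 UUO libraries. The age, strain and sex of the mice, the promoter of the transgene and the hour at which kidneys were taken are not given by labels that fit these groups. The samples also carry a protocol for folic acid injection of male Balb/c mice. It conflicts with their titles, genotypes and treatments, from which the groups were taken. Nothing in the labels ties a library to 1 animal. A p-value here thus sets a difference between groups against the spread of libraries within groups, part of which may be technical.

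The clock of a mammalian cell is a loop of transcription factors that turns over about once a day. CLOCK and ARNTL (also called BMAL1) bind as a pair to E-box sequences and switch on the Per and Cry genes, whose proteins return to the nucleus and inhibit that pair. The same pair switches on Nr1d1, whose protein, REV-ERB alpha, represses Arntl at sites called ROREs. It also switches on Dbp, which with Tef and Hlf forms the PAR bZIP family of activators that bind D-box sequences. In peripheral organs of the mouse the RNAs of Dbp, Nr1d1 and the Per genes peak in the light phase or near its end, while Arntl RNA peaks in roughly the opposite part of the day. Below, Dbp, Tef, Hlf, Per1, Per2, Per3, Cry2 and Nr1d1 are called Dbp-phase genes, and Arntl and Clock are called Arntl-phase genes. In kidney the clock and its PAR bZIP outputs are known to set daily rhythms of salt transport and drug handling.

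The letters that such factors read could be shown for the start sites of some members. RefSeq promoter windows (GRCm38.p6, 250 bases before to 50 bases after a start) were matched by symbol for 9 of the 10 members, with 14 windows in all. They were searched on both strands for the E-box CACGTG, the E-box variant CACGTT, the D-box TTANGTAA, the RORE core TAGGTCA and the longer RORE AGTAGGTNA, whose matches can overlap those of the core. Stretches around matches follow, 5′ to 3′ along the strand of the gene with the match in capitals. They are shown because E-boxes, D-boxes and ROREs are the sites through which the loop described above acts.
Per1 E-box, chr11:69098756-69098815 (+): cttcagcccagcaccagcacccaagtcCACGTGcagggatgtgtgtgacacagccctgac
Tef E-box, chr15:81802534-81802563 (+): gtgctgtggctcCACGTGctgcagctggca
Tef E-box at another start, chr15:81811264-81811293 (+): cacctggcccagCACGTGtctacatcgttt
Cry2 E-box variant, chr2:92434203-92434262 (-): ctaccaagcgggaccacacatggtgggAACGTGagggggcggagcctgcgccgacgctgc
Nr1d1 E-box variant, chr11:98775388-98775417 (-): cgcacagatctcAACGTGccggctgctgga
Per3 D-boxes, chr4:151044796-151044890 (-): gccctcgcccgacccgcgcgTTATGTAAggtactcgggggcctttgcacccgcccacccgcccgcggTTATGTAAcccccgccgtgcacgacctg
Arntl RORE, 5′ copy, chr7:113207493-113207521 (+): ttggtcggaaAGTAGGTTAgtggtgcgac
Arntl RORE, 3′ copy, chr7:113207529-113207557 (+): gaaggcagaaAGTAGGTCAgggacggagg

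The E-box was in windows of 2 members, Per1 and Tef, and in 7.15% of all 32851 windows of the same length. The variant was in windows of Cry2 and Nr1d1 and in 4.68% of all windows. The D-box was in 1 member, Per3, with 2 copies in 1 window, and in 2.32% of all windows. Arntl was the member with the longer RORE, in 2 copies, and 0.591% of all windows held that motif. Of the 2 starts listed for Arntl, the one at 113207511 is the last base of the 5′ copy, and the one at 113207465 lies before both. The RORE core was found in the Arntl window alone among members and in 2.61% of all windows. Both Arntl matches, and the first Tef match, lie in annotated exons. Members are counted here by gene, 9 of them with 14 windows in all, while the shares are of windows, so these units differ. A match describes the letters only.

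Total counts ran from 19483994 to 30033405 per library. Levels are given in CPM, meaning counts relative to a library's total after scaling by edgeR's TMM factors. Smoc2, the gene named by the transgene, was at 12.6, 19.7 and 43.3 CPM in WT normal libraries and at 27.8, 26.9 and 10.6 CPM in those labelled SMOC2 normal. It was at 131 to 158 CPM in WT UUO and at 83.9 to 124 CPM in libraries labelled SMOC2 UUO. The gene was therefore not higher in the libraries labelled SMOC2, and genotype below means the label. Markers of kidney cells were present in every group. The 8 proximal tubule markers together stood at 15230 to 22130 CPM in normal and at 1180 to 3267 CPM in UUO libraries, with all 8 lower after UUO in both genotypes.

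UUO went with lower levels of most Dbp-phase genes in both genotypes, led by the PAR bZIP gene Hlf, the nuclear receptor gene Nr1d1 and the PAR bZIP genes Tef and Dbp. In WT kidney 8 of the 10 members fell and 0 rose at an adjusted p under 0.05 by edgeR's quasi-likelihood test. Over all 17926 genes tested, 61.1% passed, 29.8% as falls and 31.3% as rises. In SMOC2-labelled kidney 6 members fell and 0 rose, where 62.8% of all genes passed, 30.4% as falls and 32.5% as rises. Counted by libraries that do not overlap, 5 members were lower in WT UUO kidney (Tef, Hlf, Cry2, Nr1d1 and Clock), where 60.8% of all genes separated and 29.5% were lower. In SMOC2-labelled kidney 6 were lower (Dbp, Tef, Hlf, Per1, Per2 and Nr1d1), where 62.7% separated, 30.1% lower and 32.6% higher. The share of members called is thus to be read against a background in which most genes moved. The median log2 fold change of the 10 members was −1.02 in WT and −1.05 in SMOC2-labelled kidney, beside 0.05 and 0.04 over all genes tested. In these bulk libraries, fewer cells of a type and less RNA per cell cannot be told apart. The hour of collection is not given, so that UUO and normal groups taken at different hours cannot be told apart from UUO itself.

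Among the PAR bZIP activators, Hlf (ENSMUSG00000003949, chromosome 11, 90336536 to 90390895, minus strand) had the largest fold of the 10 members. In WT normal libraries 1, 2 and 3 it was at 157, 102 and 160.3 CPM, and in WT UUO libraries 1 to 4 at 10.8, 19.2, 8.38 and 22.6 CPM. In SMOC2 normal libraries 1, 3 and 4 it was at 195, 141 and 197 CPM, and in SMOC2 UUO libraries 1 to 4 at 14.9, 20.05, 32.7 and 31.4 CPM. Every normal library was thus above every UUO library. The log2 fold change was −3.20 (SE 0.34), or 9.17-fold lower, in WT and −2.85 (SE 0.33), or 7.18-fold lower, in SMOC2-labelled kidney.

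Tef (ENSMUSG00000022389, chromosome 15, 81802421 to 81826863, plus strand) was the most abundant PAR bZIP RNA. It was at 336, 189 and 288 CPM in WT normal and at 50.03, 83.5, 52.2 and 90.7 CPM in WT UUO libraries. SMOC2 normal libraries held 400.0, 351 and 457 CPM and SMOC2 UUO libraries 97.0, 96.8, 142 and 151 CPM. The 4 groups ordered as SMOC2 normal, WT normal, SMOC2 UUO and WT UUO without any overlap between neighbours. Tef fell by 1.97 (SE 0.25) on the log2 scale in WT and by 1.72 (SE 0.25) in SMOC2-labelled kidney after UUO.

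Dbp (ENSMUSG00000059824, chromosome 7, 45705088 to 45710203, plus strand), a gene with a strong daily rhythm in most tissues, had the widest spread of the 10 within groups. WT normal libraries 1, 2 and 3 held 53.1, 8.66 and 24.9 CPM, and WT UUO libraries 1 to 4 held 2.77, 7.30, 5.62 and 10.2 CPM. Normal library 2 thus lay below UUO library 4. In SMOC2-labelled kidney, normal libraries held 55.0, 49.7 and 92.2 CPM and SMOC2 UUO libraries 21.4, 18.7, 33.3 and 24.5 CPM, with no overlap. The log2 fold change was −2.17 (SE 0.49) in WT and −1.42 (SE 0.47) in SMOC2-labelled kidney, and both passed the threshold. Leaving out WT normal library 1 moved the WT value to −1.39, and leaving out SMOC2 normal library 4 moved the SMOC2 value to −1.10 and ended its call.

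**Figure D1:**
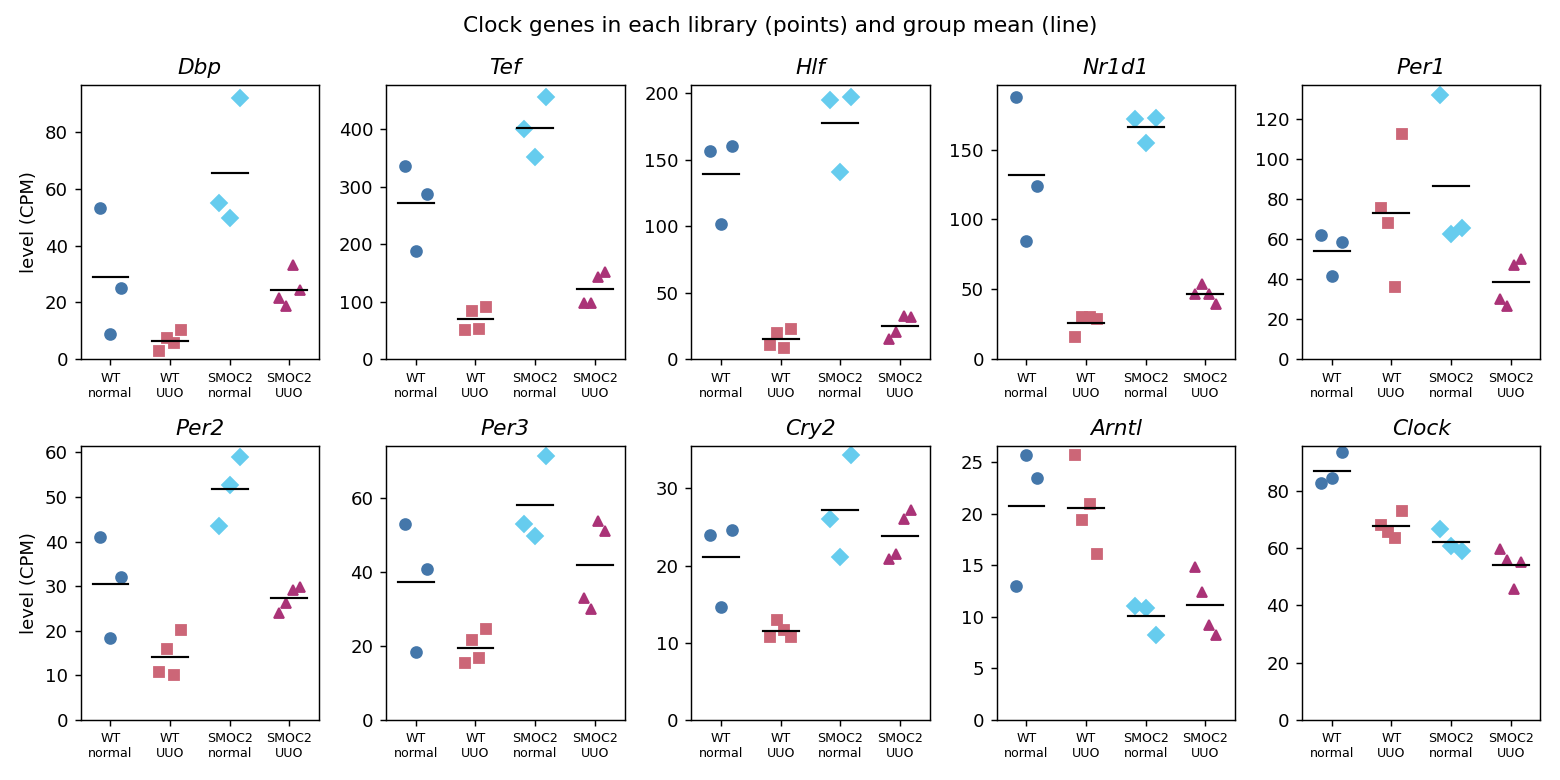
Level in CPM, on a linear axis from 0, of the 10 clock genes in each of the 14 libraries, 1 panel per gene. Points are libraries grouped as WT normal, WT UUO, SMOC2 normal and SMOC2 UUO and lines are group means. The normal groups sit above the UUO groups for Hlf, Tef and Nr1d1, while Arntl and Clock sit lower in the groups labelled SMOC2 than in the WT group of the same state.

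Nr1d1 (ENSMUSG00000020889, chromosome 11, 98767932 to 98775333, minus strand), which encodes the repressor of Arntl, had the highest level per exonic length of the members in WT normal kidney. It was at 188, 84.3 and 124 CPM in WT normal and at 15.8, 30.0, 29.8 and 28.4 CPM in WT UUO libraries. It was at 172, 155 and 172 CPM in SMOC2 normal and at 46.5, 53.8, 46.8 and 39.2 CPM in SMOC2 UUO libraries. Normal and UUO libraries did not overlap in either genotype. Nr1d1 fell by 2.35 (SE 0.24) on the log2 scale in WT and by 1.84 (SE 0.24) in SMOC2-labelled kidney. Its exons share 263 bases with Thra on the other strand, and the strand setting of the counting is not given. Over all libraries Thra had 26239 counts and Nr1d1 25772. Thra fell by 0.41 in WT and by 0.63 in SMOC2-labelled kidney.

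The period and cryptochrome genes encode the inhibitors of CLOCK and ARNTL, and their fold changes after UUO were smaller in size than those of the PAR bZIP genes and Nr1d1. Per2 (ENSMUSG00000055866, chromosome 1, 91415982 to 91459324, minus strand) was at 41.0, 18.4 and 31.9 CPM in WT normal and at 10.7, 15.9, 9.97 and 20.1 CPM in WT UUO libraries. SMOC2 normal libraries held 43.5, 52.6 and 59.1 CPM and SMOC2 UUO libraries 24.0, 26.2, 29.2 and 29.9 CPM. The groups overlapped in WT, through normal library 2 and UUO library 4, but not in SMOC2-labelled kidney. Per2 fell by 1.11 (SE 0.26) in WT and by 0.92 (SE 0.25) in SMOC2-labelled kidney on the log2 scale.

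Per3 (ENSMUSG00000028957, chromosome 4, 151003652 to 151044665, minus strand) was at 52.9, 18.3 and 41.0 CPM in WT normal and at 15.3, 21.5, 16.9 and 24.6 CPM in WT UUO libraries. In SMOC2-labelled kidney, normal libraries held 53.1, 49.9 and 71.5 CPM and SMOC2 UUO libraries 32.9, 30.1, 53.8 and 51.2 CPM. The normal and UUO ranges overlapped in both genotypes. The log2 fold change was −0.94 (SE 0.30) in WT, which passed, and −0.47 (SE 0.30) in SMOC2-labelled kidney, which did not. Without WT normal library 1 the WT value was −0.61 and no longer passed.

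Cry2 (ENSMUSG00000068742, chromosome 2, 92403646 to 92434043, minus strand) was at 24.0, 14.6 and 24.6 CPM in WT normal and at 10.7, 12.99, 11.6 and 10.7 CPM in WT UUO libraries, without overlap. SMOC2 normal libraries held 26.0, 21.1 and 34.4 CPM and SMOC2 UUO libraries 20.9, 21.5, 26.0 and 27.2 CPM, with overlap. Cry2 fell by 0.88 (SE 0.19) on the log2 scale in WT. In SMOC2-labelled kidney the log2 fold change was −0.19 (95% interval −0.59 to 0.21) and did not pass. The difference between these responses was 0.69 (95% interval 0.12 to 1.26) and did not pass the threshold over all genes.

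Per1 (ENSMUSG00000020893, chromosome 11, 69095217 to 69109960, plus strand), which glucocorticoids are known to induce apart from the clock, was the 1 Dbp-phase gene with a value above 0 after UUO in WT kidney. It was at 61.9, 41.4 and 58.7 CPM in WT normal and at 75.6, 67.7, 35.8 and 112 CPM in WT UUO libraries. In SMOC2-labelled kidney, normal libraries held 132, 62.3 and 65.7 CPM and SMOC2 UUO libraries 30.0, 26.7, 47.1 and 50.04 CPM. The log2 fold change was 0.43 (95% interval −0.33 to 1.19) in WT, with overlapping groups. In SMOC2-labelled kidney Per1 fell by 1.17 (SE 0.35), with no overlap, and this call was lost at −0.735 without SMOC2 normal library 1. The difference between the genotypes' responses was −1.60 (95% interval −2.68 to −0.52), with an adjusted p of 0.615 by edgeR over all genes, so it did not pass. No gene passed for this difference by edgeR, while 1154 genes and 2 of the members had an unadjusted p under 0.05 and DESeq2 called 25 genes and 0 members.

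The Arntl-phase genes encode the activators of the loop. Arntl (ENSMUSG00000055116, chromosome 7, 113207465 to 113314126, plus strand) was at 12.96, 25.7 and 23.5 CPM in WT normal and at 25.7, 19.4, 20.9 and 16.1 CPM in WT UUO libraries. SMOC2 normal libraries held 11.02, 10.9 and 8.23 CPM and SMOC2 UUO libraries 14.8, 12.4, 9.23 and 8.20 CPM. Normal and UUO libraries overlapped in both genotypes. The log2 fold change after UUO was −0.01 (95% interval −0.53 to 0.51) in WT and 0.16 (95% interval −0.39 to 0.70) in SMOC2-labelled kidney, neither past the threshold.

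Clock (ENSMUSG00000029238, chromosome 5, 76209868 to 76304792, minus strand), whose RNA cycles little in most tissues, was the steadiest member. It was at 82.6, 84.6 and 93.4 CPM in WT normal and at 68.0, 65.6, 63.6 and 73.1 CPM in WT UUO libraries. In SMOC2-labelled kidney, normal libraries held 66.7, 60.9 and 59.1 CPM and SMOC2 UUO libraries 59.6, 55.7, 45.8 and 55.1 CPM. Clock fell by 0.36 (SE 0.09) on the log2 scale in WT, without overlap. In SMOC2-labelled kidney the log2 fold change was −0.20 (SE 0.09) and did not pass, and it passed at −0.25 without SMOC2 UUO library 1.

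**Figure D2:**
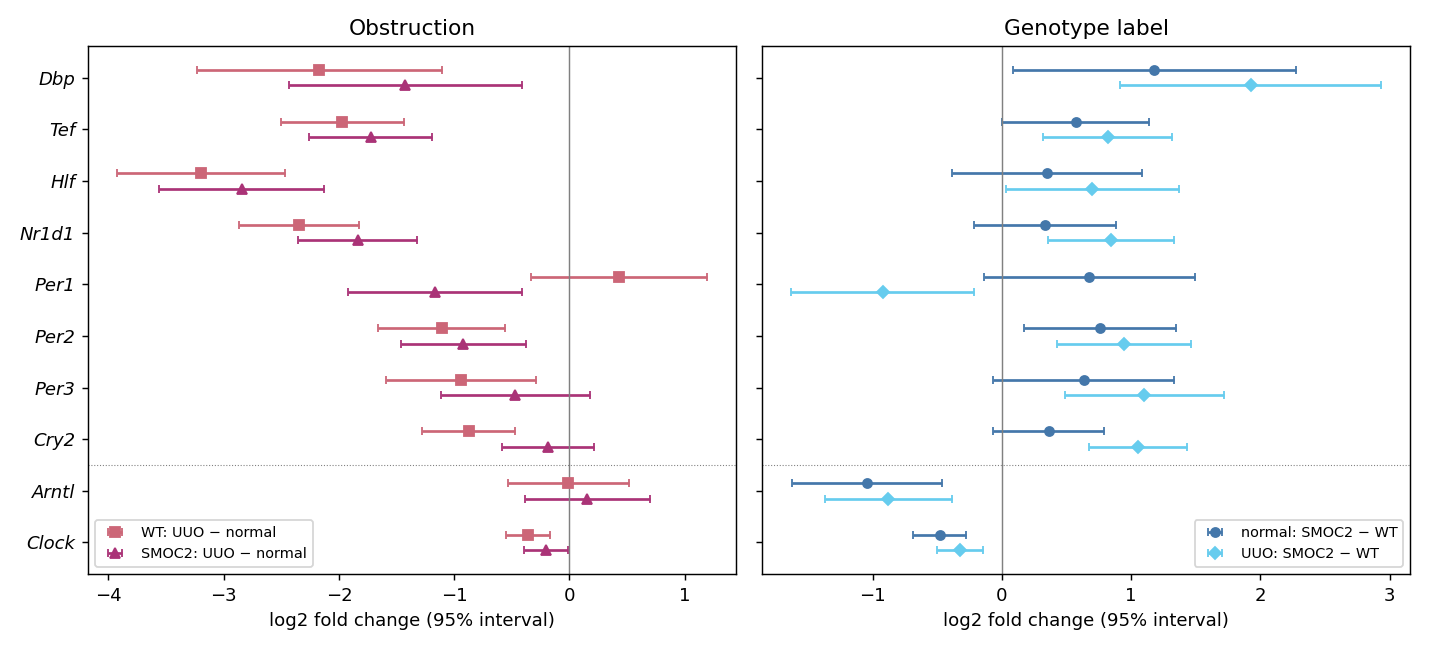
Log2 fold changes of the 10 clock genes with their 95% intervals for UUO against normal in each genotype and for the SMOC2 label against WT in each state. Hlf lies farthest below 0 after UUO, Arntl crosses 0 there, and in the genotype comparisons Arntl and Clock lie below 0 while Dbp, Tef and Per2 lie above it in both states.

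Levels can be compared between genes only per exonic length. In WT normal kidney the mean CPM per kilobase was 42.9 for Nr1d1, 34.5 for Tef, 20.9 for Hlf, 9.65 for Dbp, 9.59 for Per1, 6.33 for Clock, 5.20 for Per2, 3.89 for Per3, 3.34 for Cry2 and 2.75 for Arntl. In WT UUO kidney it was 12.9 for Per1, 8.78 for Tef, 8.44 for Nr1d1, 4.92 for Clock, 2.73 for Arntl and 1.82 for Cry2. Per1 thus stood at the top of the 10 in WT UUO kidney, where Nr1d1 had stood in normal kidney. Libraries of neighbouring genes in these orders often overlap, as those of Dbp and Per1 do in WT normal kidney.

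The genotype label went with a difference between the 2 sets in both states. Of the Dbp-phase genes, 8 of 8 had a mean above WT in SMOC2 normal kidney and 7 of 8 in SMOC2 UUO kidney, Per1 being the exception. Arntl and Clock were lower in both. By edgeR 0 of the 10 members passed in normal kidney, where 0.0279% of all genes did, 0.0223% as higher and 0.00558% as lower. At an unadjusted p under 0.05 there were 5 members and 2299 of all 17926 genes. DESeq2 called 2 members among 174 genes and limma-voom 0 among 9. In UUO kidney 1 member, Cry2, rose, where 0.831% of all genes passed, 0.558% as higher and 0.273% as lower. At an unadjusted p under 0.05 there were 10 of 10 members and 2716 of all 17926 genes. DESeq2 called 8 members there, 6 higher and 2 lower, among 750 genes. The median log2 difference of the members was 0.47 in normal and 0.83 in UUO kidney, beside 0.00 in normal and −0.01 in UUO kidney over all genes tested.

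Separation of the libraries shows the same comparison without a model. In normal kidney Tef, Per1 and Per2 were higher in every SMOC2-labelled library than in any WT library and Arntl and Clock were lower, 5 of 10 members. Over all genes 16.8% did not overlap, 8.84% being higher and 8.01% lower. In UUO kidney Dbp, Tef, Per2, Per3, Cry2 and Nr1d1 were higher without overlap and Arntl and Clock lower, 8 of 10 members. Over all genes 9.85% did not overlap, 5.42% being higher and 4.43% lower. Tef and Per2 were higher and Arntl and Clock lower in both states, 4 of 10 members where 2.36% of all genes separated in both states in 1 direction.

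In normal kidney Dbp and Arntl had the largest genotype differences of the 10, and in UUO kidney Dbp did. In UUO kidney Dbp was 1.93 higher on the log2 scale (95% interval 0.92 to 2.93), or 3.80-fold, with 18.7 to 33.3 CPM in SMOC2-labelled and 2.77 to 10.2 CPM in WT libraries. In normal kidney the difference was 1.18 (95% interval 0.08 to 2.28) and WT library 1, at 53.1 CPM, lay inside the SMOC2 range. That value was 1.95 without WT normal library 1 and 0.75 without WT normal library 2. Neither Dbp value passed the threshold over all genes with edgeR. Arntl differed by −1.04 (95% interval −1.62 to −0.46) in normal and by −0.88 (95% interval −1.37 to −0.39) in UUO kidney. Its 7 SMOC2-labelled libraries held 8.20 to 14.8 CPM and its 7 WT libraries 12.96 to 25.7 CPM, so that WT normal library 1 and SMOC2 UUO library 1 cross when the states are pooled.

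Among the other members, Clock differed by −0.48 (SE 0.10) in normal and by −0.32 (SE 0.08) in UUO kidney, with 45.8 to 66.7 CPM over all SMOC2-labelled and 63.6 to 93.4 CPM over all WT libraries. Cry2 was 1.05 (95% interval 0.67 to 1.43), or 2.07-fold, higher in SMOC2-labelled UUO kidney, and this call was lost at values of 1.01 to 1.02 when SMOC2 UUO library 3, WT UUO library 1 or WT UUO library 4 was left out. Per3 was 1.10 (SE 0.29), Per2 0.95 (SE 0.24), Nr1d1 0.84 (SE 0.23), Tef 0.82 (SE 0.23) and Hlf 0.70 (SE 0.31) higher there, and Per1 differed by −0.92 (SE 0.33), none past the threshold.

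The mean of the genotype differences in normal and UUO kidney was added after the data were seen. By that measure Dbp (1.55, SE 0.35), Per2 (0.85, SE 0.18) and Cry2 (0.71, SE 0.13) were higher and Arntl (−0.96, SE 0.18) and Clock (−0.40, SE 0.06) lower in SMOC2-labelled kidney past the threshold, 5 of 10 members where 2.19% of all genes passed, 1.37% as higher and 0.814% as lower. Leaving out 1 library gave between 1 member (without SMOC2 normal library 4) and 6 members (without WT normal library 1), with 2 without WT normal library 3 and 3 without SMOC2 normal library 3, SMOC2 UUO library 2 or 3 or WT UUO library 1. Genotype and hour of collection cannot be told apart, since no hour is given for any library.

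A single value per library sums up the contrast, namely the mean log2 CPM of the 8 Dbp-phase genes minus that of Arntl and Clock, here called the phase gap. It was 1.29, −0.37 and 0.44 in WT normal and −1.44, −0.58, −1.15 and −0.30 in WT UUO libraries. In SMOC2-labelled kidney it was 1.78, 1.59 and 2.23 in normal and 0.03, 0.24, 1.09 and 0.98 in UUO libraries. WT normal library 2 lay between WT UUO libraries 2 and 4. The normal and UUO groups labelled SMOC2 did not overlap, nor did the genotypes within either state. Group means were 0.46 ± 0.83 (SD, n = 3), −0.87 ± 0.52 (SD, n = 4), 1.87 ± 0.33 (SD, n = 3) and 0.59 ± 0.53 (SD, n = 4) for WT normal, WT UUO, SMOC2 normal and SMOC2 UUO.

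UUO went with a gap that was 1.32 smaller in WT and 1.28 smaller in SMOC2-labelled kidney, and these falls differed by 0.04. The SMOC2 label went with a gap 1.41 larger in normal and 1.45 larger in UUO kidney. Each of the 4 differences was more than the pooled SD of 0.57 within groups. The members were chosen with the data known, so no p is given for this value. The mean log2 CPM of the Dbp-phase genes was 5.18 to 6.33 in WT normal and 3.95 to 4.80 in WT UUO libraries, without overlap. The mean of Arntl and Clock was 5.04 to 5.55 in WT normal and 5.10 to 5.39 in WT UUO libraries, one range inside the other. Over both states it was 5.04 to 5.55 in WT and 4.37 to 4.90 in SMOC2-labelled libraries, without overlap.

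**Figure D3:**
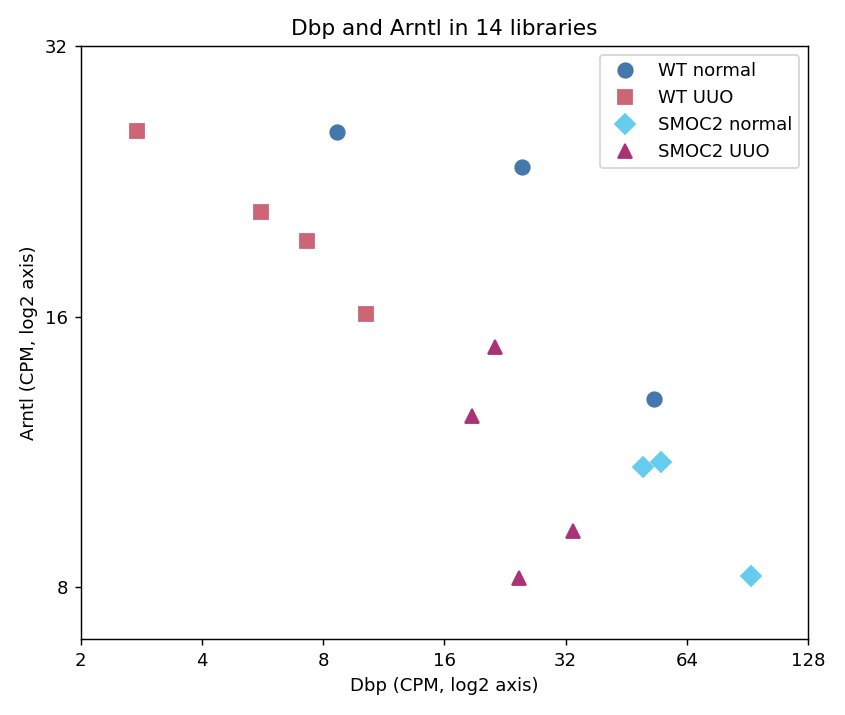
Dbp against Arntl in each of the 14 libraries, in CPM on log axes, with a symbol for each of the 4 groups. Dbp spans 2.77 to 92.2 CPM and Arntl 8.20 to 25.7 CPM, and within each group the library with the most Dbp has less Arntl than the library with the least Dbp.

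Within groups, where genotype and obstruction are the same for each library, the clock genes still differed widely. The SD of log2 CPM within groups was 0.79 for Dbp, 0.54 for Per1, 0.52 for Hlf, 0.48 for Per3, 0.39 for Per2, 0.37 for Tef, Nr1d1 and Arntl, 0.28 for Cry2 and 0.12 for Clock. The median over 10910 genes with a mean log2 CPM of at least 3 was 0.15. Dbp lay at percentile 99.3 of those genes, Per1 at 97.9, Arntl at 93.5 and Clock at 30.5. In WT normal kidney Dbp alone ran from 8.66 CPM in library 2 to 53.1 CPM in library 1, while Arntl ran the other way, from 25.7 to 12.96 CPM in these libraries.

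These deviations were shared across members. After each gene's group mean was subtracted, Dbp and Per3 deviated to the same side in 14 of 14 libraries, with Pearson's r of 0.91 and Spearman's rho of 0.93, and r of 0.82 without the 2 libraries farthest from the median of Dbp. Dbp and Tef also shared their side in 14 of 14 (r 0.85, rho 0.88, and 0.82 without those 2). Per2 followed in 13 of 14 (r 0.87). Arntl was on the same side as Dbp in 1 of 14 libraries (r −0.82, rho −0.79, and −0.72 without those 2). Cry2 (r 0.71, 12 of 14), Hlf (r 0.64, 13 of 14) and Nr1d1 (r 0.82, rho 0.60) were looser. Nr1d1 shared the side of Dbp in 8 of 14 libraries, and its r was 0.64 without those 2. Per1 (r 0.35) and Clock (r −0.16) followed Dbp little. Clock was on the same side as Arntl in 9 of 14 libraries (r 0.39, rho 0.40). The points share depth and group within each library, and genes were chosen with the data known, so these values carry no p.

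Ranking all 10909 other genes by the same measure placed some clock genes near either end and others not. Among the genes most like Dbp, Per3 was at rank 3, Per2 at 6, Tef at 13 and Nr1d1 at 17, and Arntl was at rank 28 from the most opposite. Cry2 was at rank 117, Hlf at 254, Per1 at 1932 and Clock at 6995 from the most alike. The 8 genes outside the 10 that were most like Dbp were Mturn (r 0.94), Nr1d2 (0.93), Peli2 (0.89), Aasdh (0.88), Myo5c (0.87), Tns2 (0.87), Mttp (0.87) and Ppm1k (0.86). Nr1d2, which encodes REV-ERB beta, is the clock gene in that list. The most opposite were Cep78 (r −0.92), 1600012H06Rik (−0.92), Clic1 (−0.90), Nup85 (−0.90), Nans (−0.89), Calm2 (−0.88), Hdac2 (−0.87) and Fbxo45 (−0.87). Closest to Arntl of all genes ranked was Npas2, which encodes a partner of ARNTL that can stand in for CLOCK, with r of 0.92 (rho 0.83). The next were Tpm4 (r 0.91), Emp1 (0.90), Fam98a (0.89), Kctd11 (0.89), Vps45 (0.88), Ccn4 (0.88) and Tgfb1 (0.88). Most opposite to Arntl were Asl (r −0.90), Mturn (−0.88), Mttp (−0.88), Slc25a42 (−0.87), Gm37824 (−0.87), Tprkb (−0.87) and Frmd4b (−0.87). Usp2, a deubiquitinase gene under clock control, followed at rank 8 (r −0.86).

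**Figure D4:**
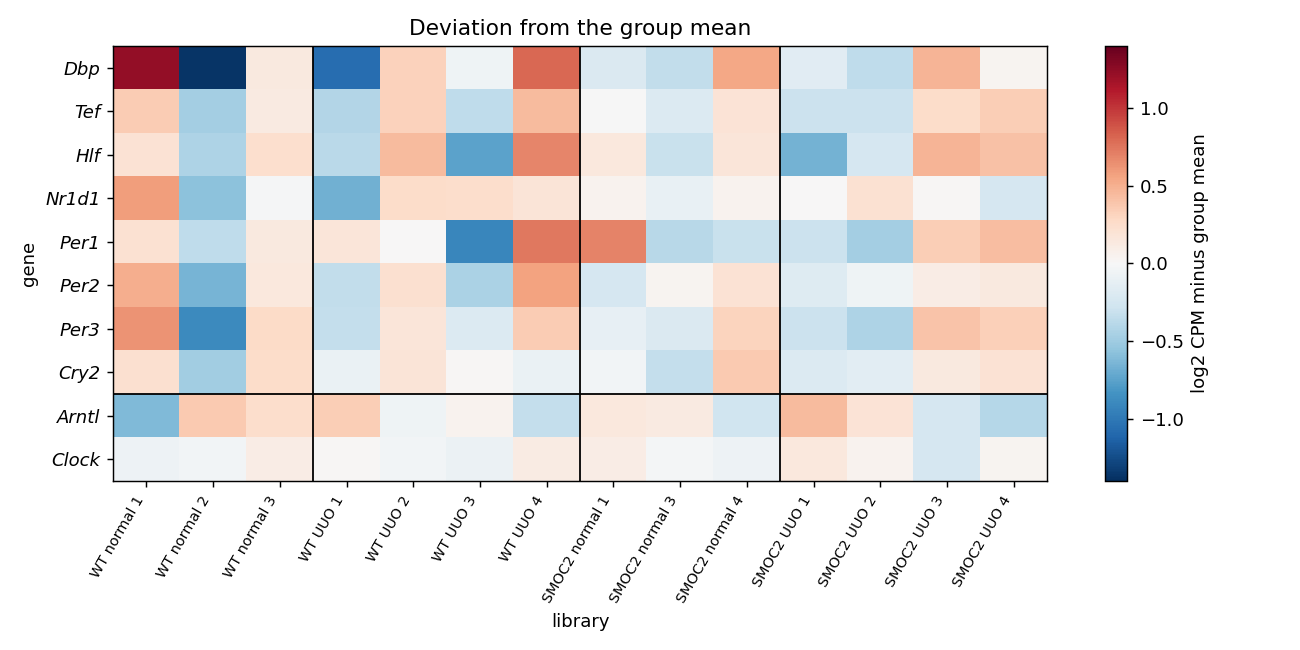
Deviation of each clock gene (rows) from its group mean in each of the 14 libraries (columns, ordered by group), in log2 CPM, with red above and blue below the mean. Dbp, Per3, Tef and Per2 share their sign in most libraries, Arntl takes the other sign in 13 of 14 against Dbp, and Clock stays near 0.

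Of 8 genes that glucocorticoids induce, some deviated with Per1 and others did not. Its r was 0.77 with Tsc22d3 (rho 0.72), 0.77 with Klf9 (rho 0.69) and 0.71 with Sgk1 (rho 0.49), and r fell to 0.68, 0.61 and 0.35 without the 2 libraries farthest from the median of Per1. WT UUO library 4 held the most Per1 of its group, at 112 CPM. Sgk1 was at 163 CPM there, against 39.4 to 77.3 CPM in the other libraries of the group. Tsc22d3 was at 90.9 against 42.2 to 65.1 CPM and Fkbp5 at 83.1 against 37.9 to 44.6 CPM. Klf9, Dusp1, Zbtb16 and Mt2 were also highest there, while Mt1, at 100.6 CPM, was below libraries 2 and 3. The same library held the most Dbp (10.2 CPM), Tef (90.7 CPM), Hlf (22.6 CPM), Per2 (20.1 CPM) and Per3 (24.6 CPM) of its group. It also held the most Clock (73.1 CPM) and the least Arntl (16.1 CPM), but not the most Nr1d1 or Cry2. The r of Per1 was 0.59 with Fkbp5, 0.19 with Dusp1, −0.05 with Zbtb16, −0.40 with Mt2 and −0.62 with Mt1, the rest of the 8. Sgk1 and Tsc22d3 are also among the 8 kidney clock outputs and rhythmic transport genes described below. Of others in that list, r with Per1 was 0.60 for Alas1, 0.57 for Por, 0.51 for Slc9a3 and 0.39 for Scnn1a. For other clock genes that cycle with Dbp it ran from −0.05 (Bhlhe41) to 0.66 (Usp2).

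Other genes of the clock, from a list of 18 that were all tested, moved in both directions after UUO. In WT kidney 5 rose and 6 fell, and in SMOC2-labelled kidney 5 rose and 6 fell, so 11 of 18 passed in each, a share near that of all genes (61.1% and 62.8%). Of the 4 that cycle with Dbp, 3 fell in both genotypes. Usp2 fell by 1.98 (SE 0.24) in WT and by 2.44 (SE 0.24) in SMOC2-labelled kidney. Ciart, a repressor of CLOCK and ARNTL, fell by 1.65 (SE 0.43) and 2.07 (SE 0.42), and Nr1d2 by 0.69 (SE 0.17) and 0.62 (SE 0.17). The fourth, Bhlhe41, had log2 fold changes of 0.11 and 0.65 that did not pass.

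Not all inhibitors of the loop fell. Cry1, the other cryptochrome gene, rose by 0.80 (SE 0.25) in WT and by 1.11 (SE 0.25) in SMOC2-labelled kidney. Csnk1e, which encodes a kinase of the PER proteins, rose by 1.2 and 1.33, its relative Csnk1d by 0.31 and 0.28, and Timeless, also a gene of DNA replication, by 1.69 and 1.43. Npas2 was at 6.30, 18.6 and 12.3 CPM in WT normal and 13.2 to 18.5 CPM in WT UUO libraries, and at 8.83, 8.05 and 4.95 CPM in SMOC2 normal and 9.90 to 18.2 CPM in SMOC2 UUO libraries. It rose by 0.92 (SE 0.33) in SMOC2-labelled kidney, while the WT value of 0.44 did not pass.

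The genotype comparisons called 0 of these 18 genes by edgeR in either state, with 1 in normal and 5 in UUO kidney at an unadjusted p under 0.05, where 2299 and 2716 of all genes were. DESeq2 called 2 in UUO and 0 in normal kidney. All 4 that cycle with Dbp had higher fitted values in SMOC2-labelled kidney in both states, by 0.30 to 0.90 in normal and by 0.01 to 0.85 in UUO kidney, and both that cycle with Arntl, Npas2 and Nfil3, had lower ones, at −0.77 and −0.33 in normal and −0.28 and −0.49 in UUO kidney.

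Of 8 kidney genes known as clock outputs or rhythmic transport genes, 4 fell and 1 rose in WT after UUO. In SMOC2-labelled kidney 6 fell and 1 rose. Over all genes 61.1% and 62.8% passed in either direction, 29.8% and 30.4% as falls. Of the 8, 3 in WT and 2 in SMOC2-labelled kidney had values above 0, and the 1 that rose was under 1 CPM in every library. Por, the electron donor of cytochromes P450 and a PAR bZIP target, fell by 2.15 and 1.99. Alas1, the first enzyme of heme synthesis, fell by 1.35 and 1.5. Scnn1a, a subunit of the epithelial sodium channel, fell by 1.43 and 1.47, and Slc9a3, the sodium-proton exchanger of the proximal tubule, by 1.85 and 1.71. Sgk1 and Tsc22d3 fell by 1.42 and 0.70 in SMOC2-labelled kidney, with WT values of −0.75 and 0.26 that did not pass. In the mean genotype difference, Por was 0.49 (SE 0.10) higher in SMOC2-labelled kidney and was the 1 gene of these 8 that passed.

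Cell type markers also moved with UUO. The 8 loop and distal tubule markers together stood at 6792 to 10550 CPM in normal and 1678 to 3632 CPM in UUO libraries, and 7 of the 8 fell in each genotype. Fibroblast markers stood at 191 to 578 CPM in normal and 2830 to 5066 CPM in UUO libraries, where 8 of 8 rose. Macrophage markers stood at 207 to 260.2 CPM in normal and 1291 to 2083 CPM in UUO libraries, with 7 of 7 higher in WT and 6 of 7 in SMOC2-labelled kidney. The part of these shifts in the falls of Hlf, Nr1d1, Tef and Dbp was not tested.

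Between genotypes no marker list had a gene called by edgeR in normal or in UUO kidney at the adjusted threshold. By the mean genotype difference 1 loop and distal tubule marker was lower past the threshold, where 0.814% of all genes were. Of the 8 in that list, 7 lay below 0 and 5 had an unadjusted p under 0.05, where 3607 of all 17926 genes did. Proximal tubule markers stood at 15230 to 18580 CPM in WT and 18100 to 22130 CPM in SMOC2-labelled normal kidney, and at 1180 to 3267 CPM and 2177 to 3025 CPM after UUO. Loop and distal tubule markers stood at 9380 to 10550 CPM in WT and 6792 to 8997 CPM in SMOC2-labelled normal kidney, without overlap. Collecting duct markers stood at 290.0 to 438 CPM in WT UUO and 210.4 to 289 CPM in SMOC2-labelled UUO kidney, without overlap. Of these 8 of 8 were lower and 4 had an unadjusted p under 0.05, where 2716 of all 17926 genes did. In UUO kidney the loop and distal tubule markers stood at 1791 to 3632 CPM in WT and 1678 to 2528 CPM in SMOC2-labelled libraries. There 6 of 8 were lower and 4 had an unadjusted p under 0.05. The part of these differences in the genotype values of the clock genes was not tested. The adrenal, a rhythmic organ next to the kidney, was near absent, with its 5 markers together at 4.10 to 6.90 CPM in all libraries and Cyp11a1, Cyp11b1 and Cyp21a1 each under 1 CPM.

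Reads from overlapping genes can touch some members, because the strand setting is not given. The exons of Dbp share 539 bases with Sphk2 on the other strand, those of Cry2 295 bases and those of Tef 193 bases with noncoding genes of few counts. Sphk2 was not low, with 21186 counts over all libraries against 8943 for Dbp. The part of its reads in the counts of Dbp was not tested. Sphk2 fell by 0.73 in WT and by 0.45 in SMOC2-labelled kidney after UUO, where Dbp fell by 2.17 and 1.42. Its genotype differences were 0.07 in normal and 0.35 in UUO kidney, where those of Dbp were 1.18 and 1.93.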

How the data were processed

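Polyadenylated RNA of whole mouse kidney was sequenced in 14 libraries, made with a stranded kit per the labels' protocols. The authors deposited raw counts per gene, 1 table per library, as whole numbers without normalization or pooling. STAR 2.4.1d, featureCounts 1.4.4 of the Subread package and build mm10 are named per the submitters' processing notes. Neither strand setting nor annotation is given in the sources used here. Of 47729 identifiers, 47224 matched GENCODE M21, which gave symbols, coordinates and exonic lengths.

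The 10 members and all gene lists were chosen with earlier results of these data known. Any member, any gene of those lists and the 8 genes most like and most opposite to Dbp or Arntl could be named. Genes passing filterByExpr on the 4 groups (17926) were fitted in R 4.3.3 with edgeR 4.0.16 (TMM scaling, glmQLFit, glmQLFTest) on all 14 libraries. Benjamini-Hochberg adjustment ran over all genes tested, with a threshold of 0.05, and intervals cover 95%. Log2 CPM used a prior count of 1. TMM factors were 0.801 to 0.855 in normal and 1.133 to 1.196 in UUO libraries. Total counts of 19483994 to 30033405 limit the precision of low genes such as Arntl, at about 8 to 26 CPM. Alternatives were upper-quartile and median-ratio scaling, no filter, a filter of 50 counts in 3 libraries, DESeq2 1.42.0, limma-voom (limma 3.58.1), a replicate block, a fit of only the compared libraries, and leaving out 1 library at a time. The fit was also run on simulated counts in which far fewer genes changed than after UUO here. Its behaviour with changes as broad as those of UUO was not tested. No library was a copy of another of its group, and pairs across groups were not checked. A gene of the lists is not reported here.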

Additional observations from a re-analysis of the deposited data

Results flagged for a closer look

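Nr1d1 in WT UUO library 1 was at 15.77 CPM, far below the 28.4 to 30.0 CPM of the other libraries of its group. Its gap to the nearest of them, divided by the range of the group, was over Dixon's 95% critical value for 4 libraries. This was the 1 result past it in 22 checks, made on the 10 clock genes and the phase gap in the groups of 4, and chance flags about 1 in 20. The same library held the least Dbp (2.77 CPM), Tef (50.03 CPM) and Per3 (15.3 CPM) and the most Arntl (25.7 CPM) of the 4.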

How the results depend on the processing

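The calls of members after UUO held under every scaling, filter and tool, with 8 in WT and 6 in SMOC2-labelled kidney by DESeq2 and limma-voom too. Upper-quartile scaling moved the median log2 fold change of all genes after UUO from 0.05 to 0.16 in WT and from 0.04 to 0.15 in SMOC2-labelled kidney, and Arntl in WT, near 0 by edgeR, moved with it to 0.106. Arntl there was also above 0 with 50 counts in 3 libraries (0.008) and limma-voom (0.050). The counts of genes that pass between genotypes moved with the tool and with single libraries. In normal kidney 5 genes passed by edgeR, 12 with no filter, 174 by DESeq2 (2 of them members), 9 by limma-voom and 8 with only the libraries compared. In UUO kidney 149 passed by edgeR, 750 by DESeq2, 232 by limma-voom and 39 with only the libraries compared, and members passing went from 1 to 2 with no filter and 8 by DESeq2. For the difference between responses 0 genes passed by edgeR, 1 with no filter and 25 by DESeq2. For the mean genotype difference 392 passed by edgeR, 184 with no filter and 1300 by DESeq2, with 8 members by DESeq2. Taking Dbp minus Arntl alone as the phase gap gave −1.971 for UUO in WT, 2.477 and 2.922 for genotype in normal and UUO kidney and 2.700 for their mean.

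Same-numbered libraries did not deviate together (correlations of −0.09 to 0.12), so the replicate numbers were not taken as pairs. With a replicate block 69 genes passed between genotypes in UUO kidney, 243 (2 of them members) for the mean difference and 1 for the difference between responses. With the block Arntl was at 0.102 for UUO in WT and at −0.021 for the difference between responses.

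Leaving out 1 library gave 9879 to 10663 genes for UUO in WT, 10180 to 10900 in SMOC2-labelled kidney, 5 to 21 for genotype in normal and 29 to 158 in UUO kidney, 54 to 428 for the mean and 0 to 2 for the difference between responses. In UUO kidney the count was 29 to 71 without SMOC2 UUO 1, 2 or 3 or WT UUO 1, 3 or 4. For the mean it was 54 without SMOC2 normal 4, 101 to 142 without WT normal 1 or 3 or SMOC2 normal 3, and 185 to 258 without SMOC2 UUO 1, 2 or 3 or WT UUO 1 or 4. In normal kidney it was 8 to 21 without SMOC2 normal 1 or WT normal 2 or 3. Members passing ran from 7 to 8 for UUO in WT, 5 to 7 in SMOC2-labelled kidney, 0 to 1 for genotype in UUO kidney, 0 in normal kidney, and 1 to 6 for the mean. The phase gap difference between responses ran from −0.378 without WT normal 1 to 0.451 without WT normal 2, so it had no stable sign. The other gap differences kept their sign. Values that changed sign were Arntl after UUO (−0.257 to 0.171 in WT, −0.011 to 0.279 in SMOC2-labelled kidney), Cry2 after UUO in SMOC2-labelled kidney (−0.336 to 0.021) and Per1 for the mean (−0.340 to 0.021). So did the differences between responses of Dbp (−0.028 to 1.175, and 0.746 with all libraries), Per2 (−0.086 to 0.446) and Arntl (−0.012 to 0.415). The causes were not tested.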

Other observations

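Arntl2, a relative of Arntl, rose by 0.49 (SE 0.15) in WT kidney after UUO, with a value of 0.05 (SE 0.15) in SMOC2-labelled kidney that did not pass. The difference between these responses, −0.44 (95% interval −0.90 to 0.02), did not pass edgeR's threshold over all genes.

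Of the 8 glucocorticoid-responsive genes, 4 fell and 0 rose in WT kidney after UUO and 3 fell and 1 rose in SMOC2-labelled kidney, beside 61.1% and 62.8% of all genes passing in either direction. Klf9, a transcription factor gene that also cycles, fell by 1.47 (SE 0.23) in WT and by 1.52 (SE 0.23) in SMOC2-labelled kidney. Zbtb16 fell by 3.12 (SE 0.56) in WT and had −1.12 (SE 0.54) in SMOC2-labelled kidney, and Mt2, a metallothionein gene, rose by 1.31 (SE 0.24) there.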
